A study of Homo sapiens with 16 samples.

Results

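GATA6 depletion was examined at day 4 of endoderm differentiation, on the 4 arrays of that day out of 16 in the series. The members were chosen by their titles alone. The cells were of the H1 line, an established human embryonic stem cell line, and all groups of the comparison derived from it. Both day 4 groups received 50 ng/mL activin A, 10 ng/mL BMP4 and 20 ng/mL FGF2 for 2 days. They then received 50 ng/mL activin A alone for 2 days. The control group (2 arrays) carried an empty lentiviral vector. The depleted group (2 arrays) carried a lentiviral short hairpin RNA against GATA6, and both lines were polyclonal. Neither day 4 group received doxycycline, and these arrays hold a single hairpin. Per the study, the 2 arrays of a group came from independent differentiations, and each p value rests on the spread between such pairs, pooled over the 8 groups of the series. Other arrays used were those of both lines at days 3 and 5 and the pluripotent empty vector cells of day 0. After the same first 2 days, the day 3 cells had 1 day of activin A alone and the day 5 cells 3 days. The day 0 cells received none of these factors. The pooled spread also drew on 2 rescue arrays of day 5, from hairpin cells with a doxycycline-inducible, hairpin-resistant GATA6 transgene. The rescue cells were given 60 ng/mL doxycycline and the growth factors of the other day 5 cells. The rescue arrays were the closest pair (r = 0.9983), whether they were independent could not be settled, and counting them as 1 sample lowered the genes called at day 4 from 5108 to 4674.

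GATA6 is a zinc finger transcription factor that binds DNA at the letters GATA and is found in the primitive and definitive endoderm, the heart and the gut. Definitive endoderm arises from cells of the primitive streak under Nodal signalling, which activin A stands in for in culture. It is marked by the transcription factors SOX17, FOXA2 and GATA4, and by the surface receptor CXCR4, and gives rise to liver, pancreas, lung and gut.

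All levels are log2 values after robust multi-array average (RMA) normalisation, and each difference is depleted minus control on the log2 scale with its standard error. A gene was called at an adjusted p under 0.05 in limma over 18132 genes. Where an array of a group lay below the lower quartile of the arrays (up to 3.061 log2), no fold is given, because background limits the difference. At day 4, 5108 genes were called, 28.2% of all tested, with 14.8% higher and 13.3% lower. The arrays of the groups did not overlap in 11740 genes (64.7%), which included every called gene, so that separation of the arrays adds nothing to a call. Replicates correlated across genes at r = 0.9939 (control) and 0.9957 (depleted). The 3′ to 5′ difference of GAPDH, a sign of RNA integrity, was 0.374 and 0.364 log2 in control and 0.601 and 0.481 in depleted cells, and that of ACTB was 1.42 and 1.44 against 1.68 and 1.49. Depleted arrays were thus higher on both measures, and the part of this in the results was not tested. Because whole cultures were measured, fewer cells of a type and less RNA per cell cannot be told apart.

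GATA6 itself, read by 1 probe set, measured 11.44 and 11.53 in control cells and 7.92 and 6.62 in depleted cells. Both depleted arrays lay below both control arrays and above the day 0 cells, which read 1.72 and 1.86. The depleted replicates differed from each other more than the control replicates did, with replicate 1 the less depleted. The decrease was 18.5-fold (−4.21 ± 0.29, adjusted p = 4.98e-07, limma).

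The control cells carried the defining genes of definitive endoderm, and these genes read lower in depleted cells, to different depths. SOX17, the HMG-box factor of the endoderm, read 10.59 and 10.70 in control cells and 3.40 and 2.79 in depleted cells, which reached the 2.49 and 2.79 of day 0. The difference was −7.55 ± 0.19 (adjusted p = 2.2e-10), and its 3 probe sets gave −7.55 to −3.01. HHEX, a homeobox factor of the anterior endoderm, read 8.91 and 9.25 against 4.85 and 3.51 (29.9-fold lower, adjusted p = 9.14e-07). GATA4, the closest relative of GATA6 among the endoderm factors, read 7.25 and 7.50 against 5.02 and 4.02 (7.26-fold lower, adjusted p = 1.88e-05). FOXA2, a forkhead pioneer factor, read 5.26 and 6.14 against 3.64 and 4.00 (3.68-fold lower, adjusted p = 0.00235).

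Some factors that act earlier, in the mesendoderm, were lower too, while TBXT was higher, as given below. EOMES and GSC stayed above their day 0 levels. EOMES, a T-box factor required for endoderm specification, read 12.35 and 12.25 in control cells and 10.98 and 10.46 in depleted cells, against 5.14 and 4.46 at day 0 (2.99-fold lower than control, adjusted p = 5.62e-05). GSC, a homeobox factor of the organiser, read 10.20 and 10.57 against 8.20 and 7.05 (6.8-fold lower, adjusted p = 1.71e-05), with 2.07 and 2.11 at day 0. The depleted level of both genes thus lay between day 0 and control. LHX1 (−1.30 ± 0.33, adjusted p = 0.00953) and MIXL1 (−0.78 ± 0.19, adjusted p = 0.00765) were also lower, but LHX1 spanned −2.07 to −0.52 without 1 or the other depleted array and lost its call without control replicate 1 (−1.22, adjusted p = 0.0612) or when only the 4 arrays of day 4 were fitted (adjusted p = 0.099), and MIXL1 lost it without depleted replicate 2 (−0.58, adjusted p = 0.0979). OTX2, a homeobox factor of the anterior epiblast and endoderm, read 11.28 and 11.59 against 8.39 and 7.32 (12-fold lower, adjusted p = 0.000331). PRDM1, a zinc finger repressor, read 9.59 and 9.52 against 5.34 and 5.20 (19.5-fold lower, adjusted p = 3.76e-08), although its 5 probe sets spanned −4.28 to −0.19.

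**Figure D1:**
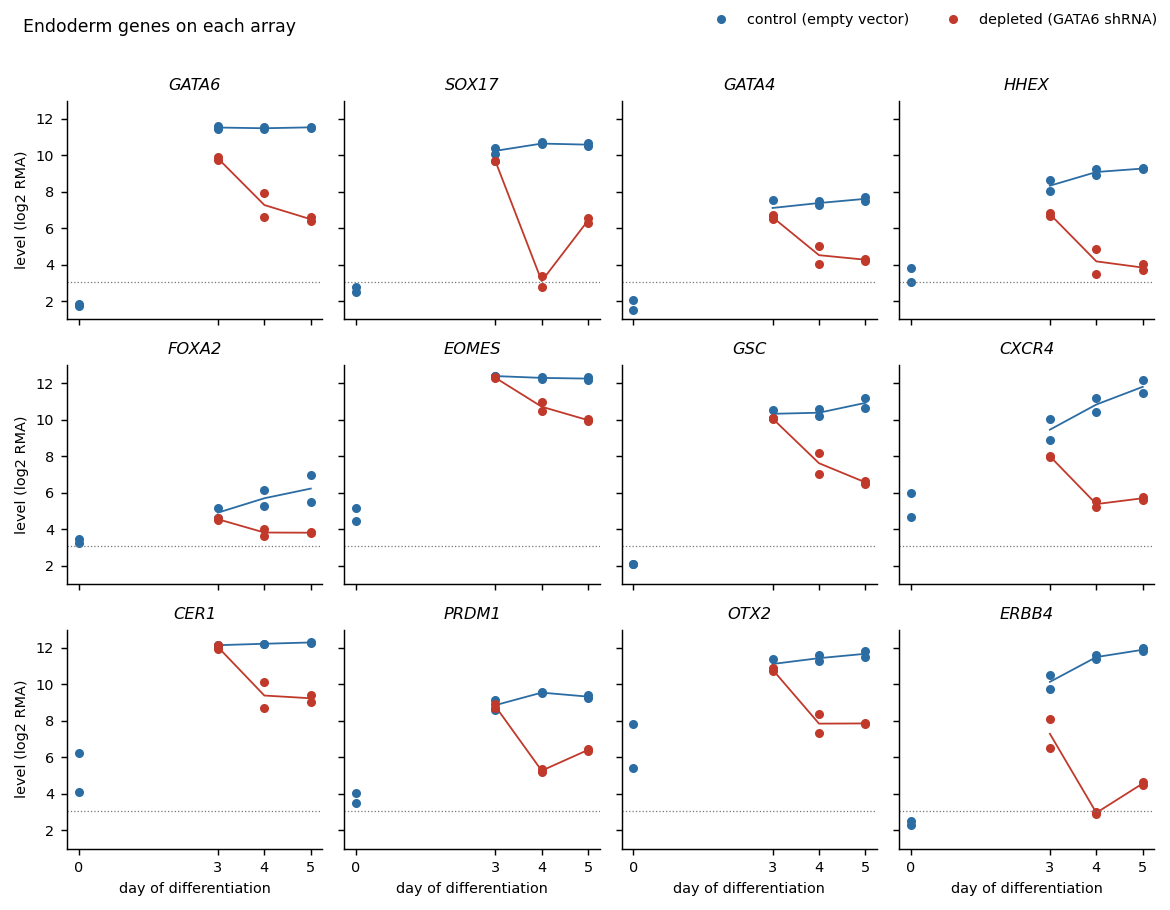
Level (log2 RMA) of 12 endoderm genes by day of differentiation, with 1 point per array, lines through the means of 2 arrays, control cells in blue, depleted cells in red and the highest lower quartile of an array as a dotted line. At day 4 every depleted point lies below both control points of the same gene, and SOX17 reads 3.40 and 2.79 in depleted cells at day 4 against 6.31 and 6.55 at day 5.

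Of 20 measured endoderm transcription factors, 16 were called lower and 1 higher, with a median of −2.32. The median of all genes was −0.01, with 13.3% of them lower and 14.8% higher. Beyond those above, the homeobox factor MNX1 read 6.96 and 7.75 in control cells and 3.48 and 3.31 in depleted cells (15.6-fold lower, adjusted p = 9.1e-06). The member that rose, ONECUT1, lay near background in both groups (2.77 and 2.53 against 3.39 and 3.17, adjusted p = 0.0138), and was not called without depleted replicate 1 or control replicate 2 (adjusted p = 0.108 and 0.109). FOXA1 was near background in both groups and was not called (−0.34, adjusted p = 0.167). FOXA3, a relative of FOXA2, was lower by a smaller amount (−0.70 ± 0.24, adjusted p = 0.0455), and not called without any 1 of the 4 arrays (adjusted p = 0.0728 to 0.224).

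Among 11 GATA factors and cofactors, 4 were called lower and 1 higher (median −0.06), where 13.3% of all genes were lower and 14.8% higher. ZFPM2, which encodes the cofactor FOG2 that binds GATA zinc fingers, read 6.16 and 6.30 in control cells and 3.30 and 2.58 in depleted cells (−3.28 ± 0.28, adjusted p = 3.2e-06). GATA3 fell by about as much in each of its 3 probe sets (−1.03 to −0.87), from 6.87 and 6.95 to 5.80 and 6.06 (adjusted p = 0.00513). GATA5 was called lower (−0.54, adjusted p = 0.0104), but its 3 probe sets ranged from −2.15 to −0.05 and the call was lost without depleted replicate 1 (−0.51, adjusted p = 0.0675) or control replicate 1 (−0.48, adjusted p = 0.0798). GATA2, a factor of blood progenitors, overlapped between the groups (5.37 and 4.53 against 4.65 and 5.13, adjusted p = 0.932). The call of the rise in LMO4, a LIM-only protein, was lost without any 1 of the 4 day 4 arrays (adjusted p = 0.0522 to 0.171).

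No surface or secreted endoderm gene was called higher, and 21 of 27 were called lower (median −3.42), where 13.3% of all genes were lower. ERBB4, a receptor for neuregulins, read 11.62 and 11.38 in control cells and was at background in depleted cells (2.88 and 3.03), a difference of −8.54 ± 0.38 (adjusted p = 2.46e-08). CXCR4, the receptor used to sort definitive endoderm, read 10.45 and 11.22 against 5.53 and 5.23 (44-fold lower, adjusted p = 1.5e-06). CER1, a secreted Nodal, BMP and WNT antagonist, read 12.22 and 12.24 against 10.11 and 8.68 (7.16-fold lower, adjusted p = 0.00121). CER1 thus stayed well above background in depleted cells, while ERBB4 did not. CYP26A1, which degrades retinoic acid, read 12.96 on both control arrays and 10.58 and 9.21 in depleted cells (8.37-fold lower, adjusted p = 8.76e-06). KIT, the stem cell factor receptor that is co-expressed with CXCR4 in endoderm, fell 10.3-fold (−3.37 ± 0.25, adjusted p = 8.89e-07). CDH2, which encodes N-cadherin, fell by 1.26 (adjusted p = 3.02e-05).

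Genes that control cells themselves raised during differentiation were used as a wider measure. Against day 0, 7.01% of genes (1271) were called higher by at least 1 log2 in control cells at day 5, and 5.77% (1046) lower by at least 1 log2, on arrays other than those of day 4. The 3′ to 5′ difference of ACTB was 0.931 and 1.08 on day 0 arrays and 1.71 and 1.64 at control day 5. That of GAPDH was 0.123 and 0.112 against 0.414 and 0.62, and the part of this in both sets of genes was not tested. Of the 1271 raised genes, 960 (75.5%) were lower in depleted cells at day 4 and 29 (2.28%) were higher, with a median of −1.05. Of the 1046 lowered genes, 798 (76.3%) were higher and 10 (0.956%) lower, with a median of 1.03. The shares over all genes were 14.8% higher and 13.3% lower. The raised genes that nevertheless were higher after depletion included GAD1, a GABA-synthesising enzyme (2.81 ± 0.33, adjusted p = 3.77e-05), SPAG1 (2.37 ± 0.27, adjusted p = 3.4e-05) and the WNT target SP5 (1.60 ± 0.19, adjusted p = 4.58e-05).

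The promoters of the 20 largest falls are shown where they hold a GATA motif, since the depleted factor binds such letters. The motif was AGATAA or TGATAA on either strand, searched from 250 bases before to 50 bases after each transcription start that RefSeq gives on GRCh38.p14. Of the 13 falls with such a sequence 3 held it (23.1%), against 3 of 15 rises (20.0%), 1 of 9 of GATA6 and the core endoderm genes, OTX2 (11.1%), and 19.4% of all 27305 genes. The share in the falls was thus close to that of all genes. Per the study, GATA6 at day 4 bound mostly intergenic and intronic sequences and only a small part lay at proximal promoters. These shares therefore do not show where it binds. The 3 genes were APOA2, ST8SIA4 and SEMA3E, with the motif in capitals in each sequence, which runs 5′ to 3′ on the minus strand of the genome.
APOA2: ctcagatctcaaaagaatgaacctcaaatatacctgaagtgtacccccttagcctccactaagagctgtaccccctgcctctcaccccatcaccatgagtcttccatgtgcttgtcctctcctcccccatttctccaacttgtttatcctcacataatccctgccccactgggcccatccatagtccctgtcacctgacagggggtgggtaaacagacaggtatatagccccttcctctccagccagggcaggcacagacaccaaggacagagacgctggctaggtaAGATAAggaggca
ST8SIA4: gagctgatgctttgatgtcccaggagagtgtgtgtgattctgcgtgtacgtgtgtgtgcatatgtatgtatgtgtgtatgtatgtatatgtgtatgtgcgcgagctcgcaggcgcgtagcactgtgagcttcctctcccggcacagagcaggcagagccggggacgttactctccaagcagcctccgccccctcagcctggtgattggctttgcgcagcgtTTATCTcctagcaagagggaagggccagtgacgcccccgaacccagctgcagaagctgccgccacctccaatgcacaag
SEMA3E: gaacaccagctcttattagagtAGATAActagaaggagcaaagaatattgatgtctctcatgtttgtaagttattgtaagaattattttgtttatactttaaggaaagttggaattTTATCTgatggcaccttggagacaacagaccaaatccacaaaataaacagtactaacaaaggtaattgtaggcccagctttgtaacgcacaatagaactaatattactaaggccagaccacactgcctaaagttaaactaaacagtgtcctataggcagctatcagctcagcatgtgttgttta
These were APOA2, an apolipoprotein of high density lipoprotein, at chr1:161223579-161223878, ST8SIA4, which adds polysialic acid to cell surface proteins, at chr5:100903233-100903532, and SEMA3E, a secreted axon guidance factor, at chr7:83641382-83641681. The SEMA3E window held 2 motifs and the others 1 each. In these 3 genes the control arrays were high and the depleted arrays at or near background. APOA2 read 8.30 and 9.63 in control cells and 2.63 and 2.45 in depleted cells (−6.42 ± 0.57, adjusted p = 4.26e-06), ST8SIA4 9.51 and 9.37 against 3.54 and 3.17 (67.7-fold lower, adjusted p = 5.39e-10), and SEMA3E 8.91 and 9.65 against 3.77 and 3.40 (51.8-fold lower, adjusted p = 1.94e-07).

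The other large falls covered several kinds of cell surface, secreted and metabolic products. The thyroid hormone deiodinase DIO3 read 10.30 and 9.99 in control cells and 5.13 and 4.33 in depleted cells (42.7-fold lower, adjusted p = 7.2e-08). STC1, a secreted glycoprotein hormone, read 11.27 and 11.66 against 6.03 and 6.09, with all 4 of its probe sets between −5.55 and −5.29. The secreted ribonuclease RNASE1 read 9.25 and 8.77 against 3.93 and 3.73 (36.3-fold lower, adjusted p = 1.19e-07). Each of these lay above day 0 in control cells. STMN2, a microtubule regulator best known from neurons, read 10.12 and 9.12 against 4.59 and 4.38 (35.1-fold lower, adjusted p = 2.33e-06). BST2, the membrane protein tetherin, read 10.60 and 10.71 against 6.05 and 5.07 (34.2-fold lower, adjusted p = 2.36e-06), but its 4 probe sets spanned −5.71 to −0.70. EPSTI1 and the potassium channel gene KCNK12 fell 40.4-fold (adjusted p = 7.2e-08) and 37.5-fold (adjusted p = 2.29e-07).

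Depleted arrays were also set against day 0, over genes with all 4 arrays above the background limit of 3.061. Of the 20 largest falls only 9 could be compared in this way. Of these, 3 read higher on both depleted arrays than on both day 0 arrays, 5 lower and 1 overlapped. Of all genes, 27.1% were higher and 31.6% lower. Without the background limit, 10 of the 20 falls read higher, 7 lower and 3 overlapped. For SFRP1, a secreted WNT antagonist, the day 0 arrays read 9.23 and 8.92, the control arrays 10.77 and 11.22, and the depleted arrays 5.24 and 4.68, below both. All 20 of the largest rises could be compared, and 16 read higher on both depleted arrays than at day 0, 2 lower (TRIM22 and GNA14) and 2 overlapped. The rises were chosen for high levels in depleted cells and the falls for low levels, so these counts are a description of them only. The hybridisation control bioB was 7.54 to 7.58 log2 on day 0 arrays and 8.22 to 8.75 on day 4 arrays. On day 0 arrays the 3′ to 5′ differences of ACTB (0.931 and 1.08) and GAPDH (0.123 and 0.112) were below those of every day 4 array. The part of these measures in the comparisons with day 0 was not tested.

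The largest rises were of varied kinds. TAC1, the precursor of the neuropeptide substance P, was at background in control cells (2.64 and 2.23) and read 8.59 and 9.01 in depleted cells (6.36 ± 0.59, adjusted p = 6.32e-06), above the 4.65 and 5.53 of day 0. ANXA1, a calcium-dependent phospholipid-binding protein, read 6.43 and 5.48 against 11.39 and 11.51 (44.9-fold higher, adjusted p = 4.22e-06). TWIST1, a bHLH factor of mesenchyme, read 5.15 and 3.46 against 8.88 and 9.24 (27.1-fold higher, adjusted p = 1.42e-05), with 3.19 and 4.11 at day 0. Both depleted arrays of these genes thus exceeded control and day 0 cells. SOX3, a HMG-box factor of neural and pluripotent cells, read 4.37 and 4.01 in control cells and 7.85 and 8.49 in depleted cells (15.8-fold higher, adjusted p = 1.75e-06). NEFL, a neurofilament subunit, rose 15.1-fold (adjusted p = 2.97e-07) and COL12A1, a fibril-associated collagen, rose by 4.07 ± 0.26 from background (adjusted p = 3.02e-07). HPGD, which inactivates prostaglandins, rose 42.1-fold (adjusted p = 3.13e-06).

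**Figure D2:**
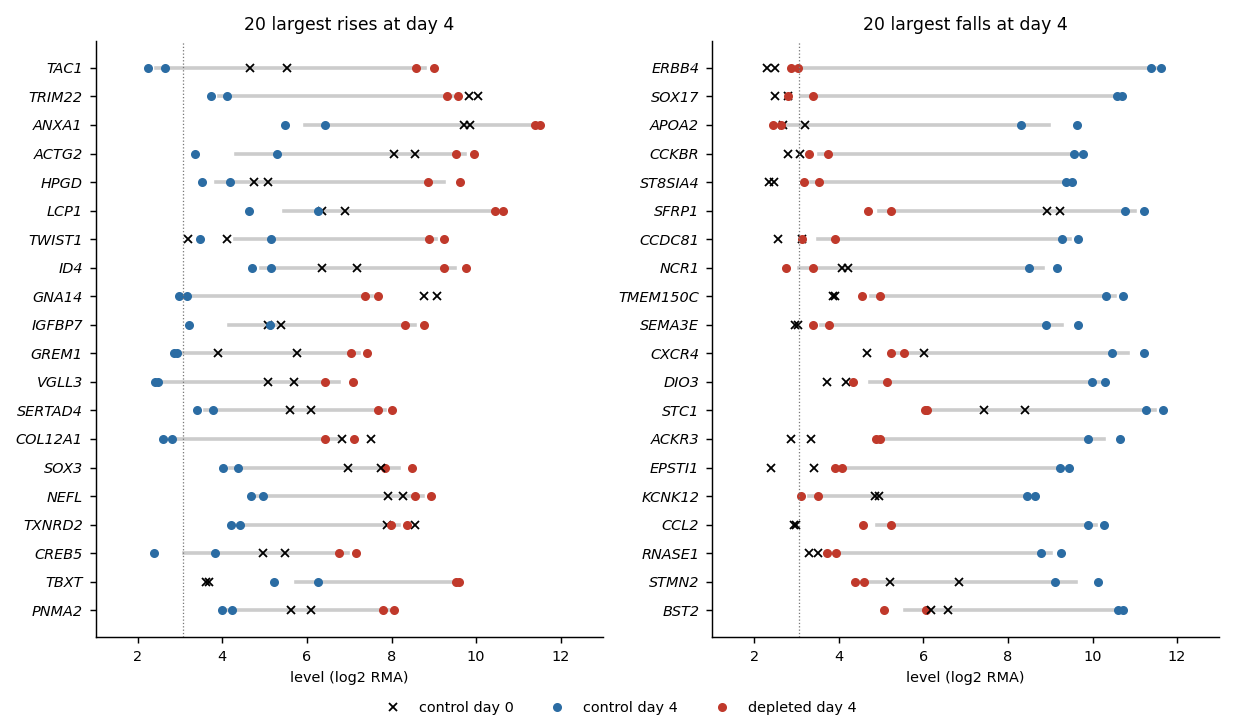
Level (log2 RMA) of the 20 genes with the largest rise (left) and the largest fall (right) at day 4, with blue and red points for each control and depleted array of day 4, crosses for each day 0 array, grey bars between the day 4 means and the highest lower quartile of an array as a dotted line. In the falling genes the control arrays lie to the right and the depleted arrays often near the dotted line, and 16 of the rising genes lie above day 0 in depleted cells.

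Contractile genes were a wide group among the rises, with 17 of 25 smooth muscle and contractile genes called higher and 1 lower (median 0.69), where 14.8% of all genes were higher. ACTG2, the enteric smooth muscle actin, read 5.30 and 3.35 in control cells and 9.52 and 9.94 in depleted cells (42.3-fold higher, adjusted p = 4.35e-05). ACTA2, the vascular smooth muscle actin, read 3.39 and 3.02 against 5.85 and 6.04 (a difference of 2.74, adjusted p = 1.98e-05). LCP1, an actin-bundling plastin, read 6.26 and 4.63 against 10.44 and 10.64 (34.1-fold higher, adjusted p = 4.94e-05). CALD1, CSRP1, TAGLN and CNN1, which encode actin-binding proteins of contractile cells, rose by 2.74, 2.85, 2.34 and 1.84 (adjusted p = 2.56e-05, 8.68e-06, 0.000108 and 9.52e-05). At day 0, before differentiation, TAGLN read 10.62 and 11.07 and CALD1 read 10.97 and 11.33. MYLK, the myosin light chain kinase, fell by 0.69 (adjusted p = 0.0149), a call lost without depleted replicate 2 or control replicate 1 (adjusted p = 0.114 and 0.176).

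**Figure D3:**
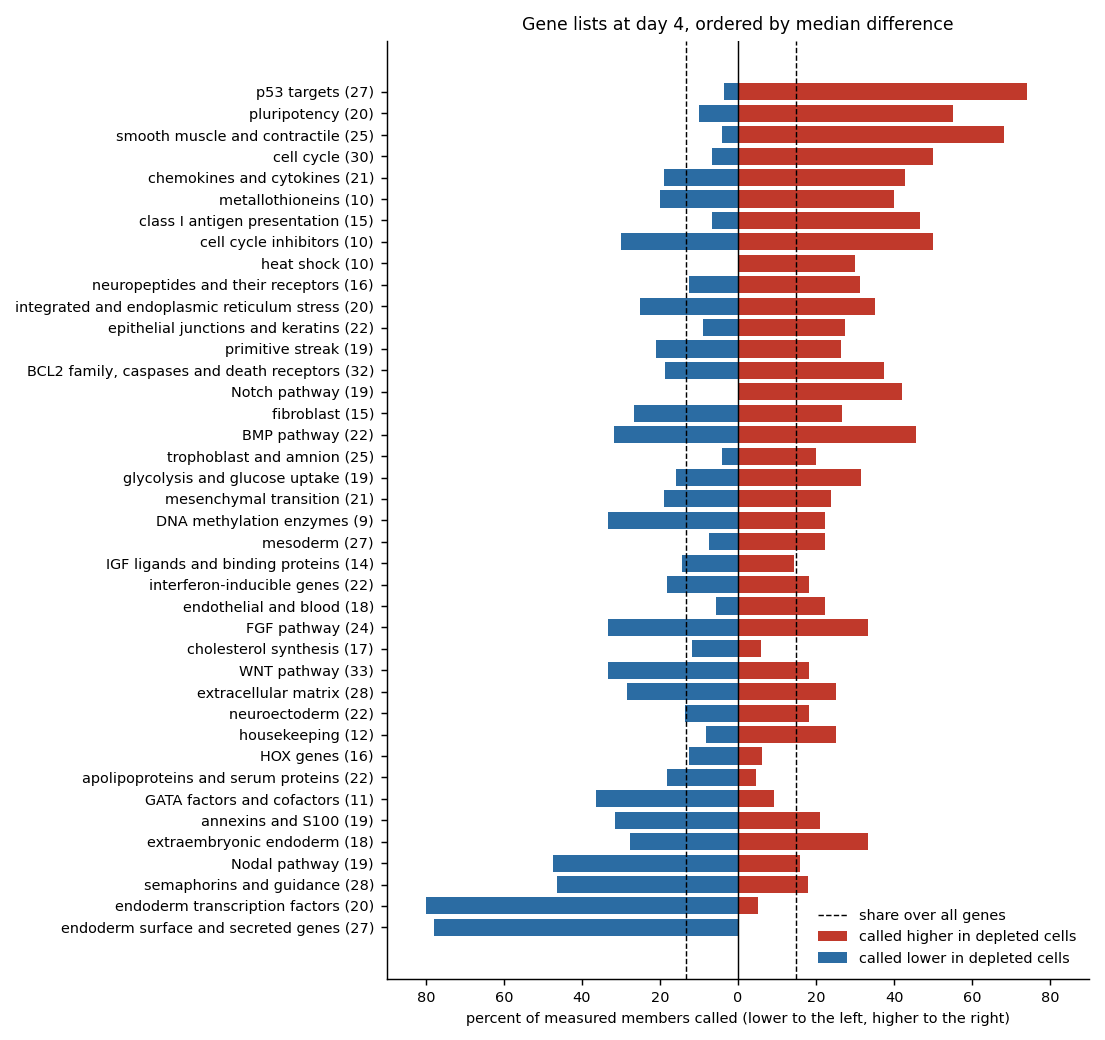
Percent of the measured members of 40 gene lists (number in brackets) called higher (red, to the right) or lower (blue, to the left) in depleted cells at day 4, ordered by the median difference of the list. The dashed lines mark the shares over all genes (14.8% higher and 13.3% lower), and endoderm lists lie at the bottom with 16 of 20 and 21 of 27 members lower.

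The primitive streak list was divided, with 5 of 19 members higher and 4 lower (median 0.20), where 14.8% of all genes were higher and 13.3% lower. Only 3 members were higher without depleted replicate 1 or control replicate 2. TBXT, the T-box factor brachyury of streak and mesoderm, read 6.25 and 5.21 in control cells and 9.60 and 9.52 in depleted cells (14.2-fold higher, adjusted p = 8.76e-06), against 3.62 and 3.69 at day 0. The 4 that were lower were the endoderm-associated EOMES, GSC, LHX1 and MIXL1 given above. SP5, a zinc finger target of WNT signalling, was higher in depleted cells on both arrays (8.45 and 8.62 against 7.14 and 6.74). MESP1, a bHLH factor of early mesoderm, was called higher (1.21, adjusted p = 0.0338) and this call was lost when a single array was left out, being 0.59 without the second control array (adjusted p = 0.332) and 0.67 without the first depleted array (adjusted p = 0.314), and also with fewer groups in the fit (adjusted p = 0.0514 and 0.135).

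Lists of other cell types had members called in both directions, where 14.8% of all genes were higher and 13.3% lower. In the mesoderm list, 6 of 27 rose and 2 fell, or 1 fell without control replicate 1 (median 0.02), and its summed level was 10.69 log2 or less in control and 10.72 or more in depleted cells. SNAI2, a zinc finger repressor of mesenchymal cells, rose 7.54-fold (adjusted p = 9.51e-05), while TBX6 of the paraxial mesoderm (6.82 and 6.39 against 6.84 and 6.44) and HAND1 (6.65 and 5.38 against 6.34 and 5.26) overlapped. In the endothelial and blood list 4 of 18 rose and 1 fell (summed level 8.53 to 9.04 and 9.26 to 9.32), led by FLI1, an ETS factor that rose from background by 3.05 ± 0.20 (adjusted p = 3.41e-07), with the endothelial adhesion molecules PECAM1 (3.76 and 3.74 against 3.76 and 3.71) and CDH5 (3.18 and 3.21 against 3.16 and 2.65) low in both groups. In the neuroectoderm list 4 of 22 rose and 3 fell (summed level 11.62 to 11.68 and 11.85 to 11.87). PAX6, an eye and forebrain factor, fell from 6.32 and 6.41 to 3.91 and 3.51 (6.32-fold, adjusted p = 3.28e-06), and SOX1, the defining early neural factor, was at background in both (2.58 and 2.69 against 2.53 and 2.37). In the trophoblast and amnion list 5 of 25 rose and 1 fell (summed level 9.98 to 10.58 and 9.75 to 9.82), with CGA at background on all 4 arrays. The rises numbered 3 without depleted replicate 1 and 2 without control replicate 2, and the falls 2 without control replicate 1 or either control array of day 3. Of 15 fibroblast genes 4 rose and 4 fell (summed level 10.23 to 10.62 and 10.28 to 10.35), with DCN at background in both groups. LUM, a proteoglycan also listed as matrix, fell to background (−4.94 ± 0.56, adjusted p = 2.63e-05), while POSTN, a matricellular protein, rose from it (3.46 ± 0.39, adjusted p = 2.53e-05). The part of such cell types in the results was not tested beyond these values.

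Extraembryonic endoderm genes also went both ways, 6 of 18 higher and 5 lower (median −0.23). The lower members were GATA4, the secreted matrix protein SPARC (not called without control replicate 1, adjusted p = 0.0595) and the basement membrane genes LAMA1, COL4A1 and COL4A2. LAMA1, a laminin chain, read 9.73 and 9.82 in control cells and 7.23 and 7.25 in depleted cells (5.81-fold lower, adjusted p = 1.91e-08), and COL4A1 read 11.24 and 11.45 against 9.70 and 9.66 (3.17-fold lower, adjusted p = 3.8e-07). SOX7, a marker of primitive endoderm, rose by 0.55 (3.99 and 3.96 against 4.52 and 4.51, adjusted p = 0.00627). Of 22 apolipoprotein and serum protein genes 4 were lower and 1 higher, where 13.3% of all genes were lower and 14.8% higher. APOA1, APOC1 and APOE fell with APOA2 (by 3.02, 2.03 and 1.48, adjusted p = 4.9e-05, 3.29e-07 and 1.02e-05). AFP, the fetal albumin-like protein, moved the other way (4.01 and 4.20 against 6.33 and 6.69, 5.3-fold higher, adjusted p = 6.88e-05), below its 7.01 and 7.89 of day 0.

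Pluripotency genes were higher as a group, 11 of 20 against 2 lower (median 0.74), but below their day 0 levels in part. The shares over all genes were 14.8% higher and 13.3% lower. POU5F1, which encodes OCT4, read 11.18 and 10.65 in control cells, 12.59 and 12.61 in depleted cells and 12.74 and 12.83 at day 0 (3.21-fold above control, adjusted p = 9.26e-06). SOX2, its partner factor, read 7.67 and 7.82 against 9.32 and 9.48, with 10.35 and 10.69 at day 0 (3.15-fold higher than control, adjusted p = 0.000139). KLF4, a zinc finger factor, read 3.42 and 4.08 against 6.38 and 7.06, above its 4.29 and 5.38 of day 0 (7.88-fold, adjusted p = 4.14e-05). The depleted arrays thus exceeded control in all 3 genes but exceeded day 0 only in KLF4. GDF3, a Nodal-related ligand, and SALL4 were lower (−0.97 and −0.80, adjusted p = 0.00108 and 0.00289), and 4 members were lower without either control array of day 3. Of 9 DNA methylation genes 2 were higher and 3 lower, led by DNMT3L (−1.07, adjusted p = 0.00263) and the dioxygenase TET2 (−1.05, adjusted p = 0.00258). Only 1 was higher without depleted replicate 2, control replicate 1 or either rescue array.

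Signalling genes showed which ligands, antagonists and targets changed together. Of 22 BMP pathway genes 10 rose and 7 fell (median 0.11), where 14.8% of all genes rose and 13.3% fell. The direct targets of BMP in the ID family were higher, although ID1 lost its call without either depleted array or control replicate 2. ID4, an inhibitor of bHLH factors, read 5.14 and 4.69 in control cells and 9.23 and 9.75 in depleted cells (23.8-fold higher, adjusted p = 9.42e-06). ID2 read 7.06 and 6.59 against 9.46 and 9.86 (7.13-fold higher, adjusted p = 5.52e-06). ID3 and ID1 rose 3.44-fold and 1.83-fold (adjusted p = 0.000207 and 0.0357), and the homeobox targets MSX1 and MSX2 rose 2.69-fold and 2.24-fold (adjusted p = 9.11e-05 and 0.000709). Antagonists were divided. GREM1, a secreted BMP antagonist, rose from background (2.86 and 2.93 against 7.03 and 7.41, adjusted p = 1.8e-05), while SMAD6, an inhibitor inside the cell, read 9.97 and 10.11 against 7.75 and 7.07 (6.18-fold lower, adjusted p = 5.7e-06) and NOG, the antagonist noggin, fell 2.5-fold (adjusted p = 0.000751). The ligand BMP2 fell 3.24-fold (adjusted p = 0.00128), BMP4 was not called (8.75 and 8.14 against 8.17 and 7.89, adjusted p = 0.41), and the receptor BMPR2 fell 3.08-fold (adjusted p = 0.000243).

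Of 19 Nodal pathway genes 9 fell and 3 rose (median −0.32), where 13.3% of all genes fell and 14.8% rose. The feedback antagonists LEFTY1 and LEFTY2, which are close copies that probes may not fully separate, read 12.65 and 12.87, and 12.66 and 13.22, in control cells and 10.65 and 10.74, and 10.73 and 10.67, in depleted cells (4.18-fold and 4.72-fold lower, adjusted p = 0.000265 and 0.000882). NODAL, the ligand, was not called (9.57 and 9.84 against 10.12 and 10.29, adjusted p = 0.349). SMAD2, which carries the signal to the nucleus, fell 2.29-fold (8.87 and 8.95 against 7.63 and 7.80, adjusted p = 2.09e-05), while its relative SMAD3 overlapped between groups (adjusted p = 0.933). The activin receptor genes ACVR1B, ACVR2A and ACVR2B fell by 0.99, 0.72 and 0.85 (adjusted p = 0.000132, 0.00482 and 9.85e-05). INHBB, an activin subunit, rose from background (2.31 and 2.56 against 5.29 and 4.49, adjusted p = 2.72e-06).

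In the WNT list 11 of 33 genes fell and 6 rose (median −0.04), where 13.3% of all genes fell and 14.8% rose. Secreted antagonists went both ways, with SFRP1 falling 65.6-fold (adjusted p = 1.76e-07), FRZB reading 7.72 and 8.49 against 4.28 and 2.99 (a difference of −4.47, adjusted p = 3.54e-06) and SFRP2 reading 7.35 and 6.71 against 9.36 and 9.42 (5.14-fold higher, adjusted p = 3.2e-06). The receptors FZD4, FZD5, FZD7 and FZD8 and the coreceptor LRP6 were lower (FZD5 from 11.20 and 12.03 to 9.43 and 9.66, adjusted p = 9.52e-05). LGR5, a receptor for R-spondins, read 8.68 and 9.19 against 5.62 and 4.75 (13.5-fold lower, adjusted p = 4.6e-07), and LGR4 fell 3.03-fold (adjusted p = 3.99e-05), whereas the R-spondin RSPO3 rose from background (3.04 and 2.61 against 5.88 and 4.58, adjusted p = 0.000139). Target genes were divided as well. LEF1, a nuclear effector and target, rose 8.9-fold (4.09 and 3.09 against 6.60 and 6.89, adjusted p = 1.5e-05), and AXIN2, a feedback target, fell 1.83-fold (adjusted p = 0.0385), a call lost without any 1 of the 4 arrays (adjusted p = 0.103 to 0.148). DKK1, an antagonist, was not called (8.29 and 8.20 against 9.28 and 8.24, adjusted p = 0.554).

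**Figure D4:**
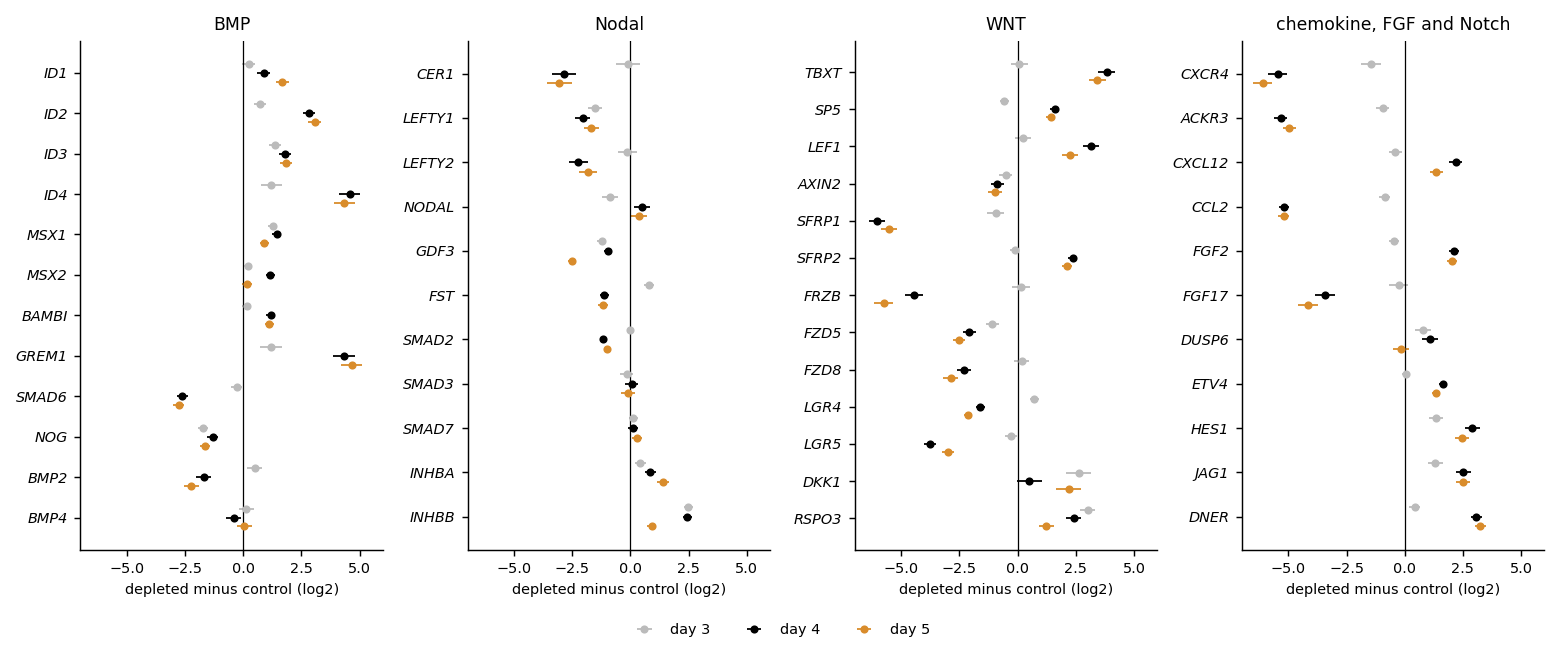
Depleted minus control (log2, points, with the standard error as bars) at days 3, 4 and 5 for members of the BMP, Nodal and WNT pathways and of the chemokine, FGF and Notch pathways. At day 4 the ID genes lie to the right of 0 and SFRP1, FRZB, LGR5, CXCR4, ACKR3 and CCL2 lie to the left, between −6.04 and −3.76.

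Both receptors of the chemokine CXCL12 fell and the ligand rose. ACKR3, the atypical receptor, read 9.90 and 10.64 in control cells and 4.98 and 4.87 in depleted cells (40.5-fold lower, adjusted p = 1.13e-07), beside the 44-fold fall of CXCR4. CXCL12 read 5.33 and 4.65 against 7.09 and 7.26 (4.55-fold higher, adjusted p = 6.69e-05). CCL2, which attracts monocytes, fell 36.4-fold (9.90 and 10.28 against 5.23 and 4.58, adjusted p = 1.91e-08), while CXCL14 rose 11.1-fold (adjusted p = 9.26e-05) and CXCL5 and CXCL8 rose from background by 3.23 and 2.27 (adjusted p = 3.37e-07 and 3.79e-05). Over the chemokine and cytokine list 9 of 21 rose and 4 fell (median 0.44), where 14.8% of all genes rose and 13.3% fell.

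The FGF list had 8 of 24 members higher and 8 lower (median −0.01), where 14.8% of all genes were higher and 13.3% lower. These counts rested on single arrays, with 4 higher and 5 lower without depleted replicate 1, 5 and 5 without control replicate 1, and 3 higher without control replicate 2. FGF17, a ligand of early endoderm, read 8.48 and 8.70 in control cells and 5.69 and 4.65 in depleted cells (10.7-fold lower, adjusted p = 4.89e-05), and FGF2, the ligand of pluripotent culture, read 6.66 and 6.28 against 8.49 and 8.70 (4.37-fold higher, adjusted p = 8.97e-06). DUSP4, a phosphatase that limits MAP kinases, fell 6.96-fold (adjusted p = 6.16e-07), and ETV4, an ETS target of FGF, rose 3.1-fold (adjusted p = 1.36e-05). Of 19 Notch genes 8 rose and 0 fell (median 0.19), or 1 fell without depleted replicate 1. They included the ligand JAG1 (5.66 and 5.10 against 7.59 and 8.21, 5.75-fold higher, adjusted p = 5.81e-05), the target HES1 (6.37 and 5.33 against 8.72 and 8.80, 7.53-fold higher, adjusted p = 1.54e-05) and the receptor NOTCH1 (1.09, adjusted p = 3.23e-05).

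Guidance genes fell more often than they rose, 13 of 28 against 5 (median −0.56), where 13.3% of all genes fell and 14.8% rose. They comprised the ligands SEMA3E and SEMA3D, the transmembrane semaphorins SEMA5A and SEMA6D (by 2.83 and 2.86, adjusted p = 5.71e-07 and 6.16e-05) and the receptors NRP1 and PLXNA2 (by 2.11 and 2.13, adjusted p = 0.000297 and 0.000147). SEMA3D read 5.75 and 6.67 in control cells and 2.97 and 3.51 in depleted cells (a difference of −2.97, adjusted p = 0.000474). NTN4, a netrin, read 7.60 and 7.45 against 4.34 and 4.10 (9.85-fold lower, adjusted p = 1.75e-07). EFNB2, a ligand of Eph receptors, and SLIT2, a repellent ligand, rose 4.85-fold and 4.4-fold (adjusted p = 0.0001 and 0.00128).

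Matrix and junction genes were divided, where 14.8% of all genes rose and 13.3% fell. Of 28 matrix genes 7 rose and 8 fell (median −0.04), from THBS1, an adhesive glycoprotein (5.31 and 4.77 against 7.84 and 8.40, 8.44-fold higher, adjusted p = 5.31e-05), to FN1, fibronectin (by −1.18, adjusted p = 3.23e-05). CDH1, which encodes E-cadherin, read 8.42 and 8.94 in control cells and 9.85 and 9.93 in depleted cells (2.32-fold higher, adjusted p = 0.00197), close to the 10.07 and 9.98 of day 0. CDH1 and CDH2 thus changed in opposite directions. CDH11, a cadherin of mesenchyme, rose 9.18-fold (5.67 and 3.72 against 8.16 and 7.63, adjusted p = 0.00116), and the calcium-binding S100A14 fell 26.4-fold (8.58 and 9.78 against 4.31 and 4.60, adjusted p = 2.91e-05).

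Targets of p53, the transcription factor that responds to DNA damage and other stress, were mostly higher, 20 of 27 against 1 lower (median 1.31). The shares over all genes were 14.8% higher and 13.3% lower. CDKN1A, which encodes the cell cycle inhibitor p21, read 6.36 and 5.75 in control cells and 8.39 and 8.55 in depleted cells (5.32-fold higher, adjusted p = 0.000365). GDF15, a secreted stress cytokine, read 7.25 and 5.94 against 9.87 and 9.78 (9.39-fold higher, adjusted p = 0.000746). FAS, a death receptor, was at background in control cells (2.50 and 2.52) and read 5.30 and 5.62 in depleted cells (2.95 ± 0.31, adjusted p = 1.68e-05). Both depleted arrays were high in each of these 3 genes. SESN2, called at adjusted p = 0.0492, lost its call under 14 of 24 alternatives, and CCNG1 was the member that fell (−0.96 ± 0.10, adjusted p = 1.68e-05).

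Regulators of cell death changed in both directions, 12 of 32 higher and 6 lower (median 0.20), where 14.8% of all genes were higher and 13.3% lower. CFLAR, which encodes the caspase 8 inhibitor cFLIP, read 8.15 and 8.22 in control cells and 6.26 and 6.15 in depleted cells (3.95-fold lower, adjusted p = 4.98e-07), and XIAP, a caspase inhibitor, fell 1.79-fold (adjusted p = 0.00099). The TRAIL death receptor genes TNFRSF10A and TNFRSF10B rose 4.28-fold and 2.53-fold (adjusted p = 8.83e-06 and 0.000136), and so did the decoy receptor TNFRSF10D, 3.71-fold (adjusted p = 7.61e-05). In the same cultures, the death receptors and a decoy were higher and an inhibitor of caspase 8 was lower. FADD was called lower (−0.4) and CASP8 higher (0.44), and both calls were lost without some single day 4 arrays. The part of these genes in cell death was not tested. The BH3-only genes PMAIP1 and HRK, which promote death, rose 3.45-fold and 2.48-fold (adjusted p = 5.01e-05 and 0.000401), and BBC3 was not called (0.72 ± 0.27, adjusted p = 0.0713). Survival genes of the BCL2 family rose too, BCL2L1 2.21-fold and MCL1 1.72-fold (adjusted p = 0.000589 and 0.00013), while BCL2 was not called (4.96 and 4.76 against 4.60 and 4.75, adjusted p = 0.345).

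**Figure D5:**
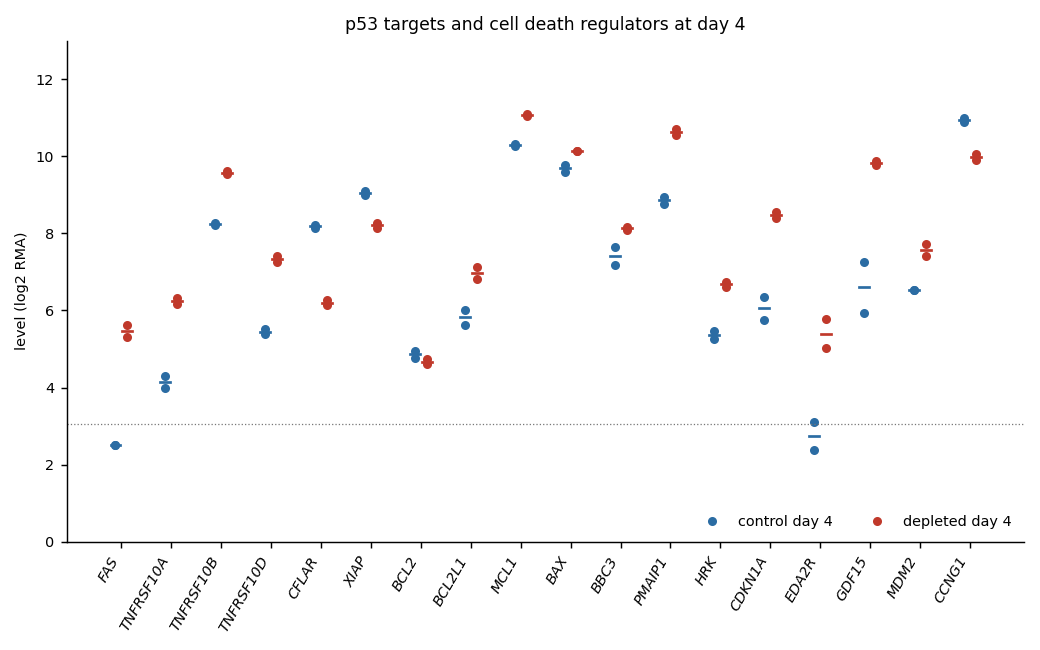
Level (log2 RMA) of p53 targets and cell death regulators at day 4, with 1 point per array, a short bar at the mean of 2 arrays, control cells in blue, depleted cells in red and the highest lower quartile of an array as a dotted line. FAS and the TRAIL receptors lie higher in depleted cells, and CFLAR, XIAP and CCNG1 lie lower.

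Of 30 cell cycle genes 15 were higher and 2 lower (median 0.47), where 14.8% of all genes were higher and 13.3% lower. The D cyclins CCND1 and CCND2 rose by 1.74 and 1.88 (adjusted p = 4.48e-05 and 3.23e-05), and the replication helicase genes MCM2, MCM3, MCM4 and MCM7 by 0.64 to 0.99, while MCM6 fell by 0.74 (adjusted p = 0.00912). The lower members numbered 1 without depleted replicate 1 and 0 without depleted replicate 2 or control replicate 1. Inhibitors of the cycle were split, 5 of 10 higher and 3 lower, with 3 higher without depleted replicate 2. CDKN2A, which encodes p16 and ARF, read 4.05 and 3.83 in control cells and 6.70 and 6.90 in depleted cells (7.29-fold higher, adjusted p = 3.69e-06), and CDKN1B, which encodes p27, fell by 1.39 (adjusted p = 2.17e-05). In the stress list 7 of 20 rose and 5 fell (median 0.27), which depended on every day 4 array. The rises numbered 4 without depleted replicate 1 or control replicate 1 and 3 without depleted replicate 2 or control replicate 2. The falls numbered 3 without depleted replicate 1 and 2 without depleted replicate 2 or control replicate 2. The amino acid response genes ATF5, TRIB3 and ASNS rose by 2.74, 2.41 and 1.18 (adjusted p = 0.00263, 0.00132 and 0.00725, with ASNS not called without control replicate 2), and the endoplasmic reticulum chaperones HSP90B1 and CALR fell by 0.62 and 0.78 (adjusted p = 0.000674 and 0.00806, with CALR not called without replicate 2 of either group).

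Antigen processing and metabolism gave smaller groups, to be read against the 14.8% of all genes that rose and the 13.3% that fell. Of 15 class I genes 7 rose and 1 fell, or 0 fell without control replicate 1 (median 0.37), with the peptide transporter gene TAP2 reading 5.18 and 5.19 in control cells and 6.74 and 6.90 in depleted cells (3.1-fold higher, adjusted p = 3.73e-06). Of 22 interferon-inducible genes 4 rose, or 2 without depleted replicate 2, and 4 fell (median 0.02). These opposed TRIM22, an antiviral ubiquitin ligase (4.12 and 3.72 against 9.31 and 9.58, 45.9-fold higher, adjusted p = 1.91e-08), to BST2. SLC2A1, the glucose transporter GLUT1, read 8.62 and 8.20 against 10.66 and 10.81 (5.01-fold higher, adjusted p = 1.94e-05), and 6 of 19 glycolysis genes rose, or 3 without depleted replicate 1, and 3 fell (median 0.07). Of 10 metallothioneins 4 rose, or 2 without depleted replicate 2, and 2 fell, or 1 without depleted replicate 1 or either control array, with MT1X 4.37-fold higher (adjusted p = 0.000102), although these are near-identical genes that probes may not separate. Of 17 cholesterol synthesis genes 1 rose and 2 fell, and of 16 HOX genes 1 rose and 2 fell, which were shares at or below those of all genes. The falls of both lists numbered 1 without either depleted array or control replicate 1, and the HOX rise was lost without depleted replicate 1 or either control array. Among 12 housekeeping genes 3 rose and 1 fell, or 0 fell without depleted replicate 2 or control replicate 1, the largest being HPRT1 at 1.21 ± 0.12 (adjusted p = 7.45e-06).

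The day 4 difference was set against that of day 3, at which 3.75% of genes (680) were called, 1.79% higher and 1.96% lower. The effect differed between the days in 2775 genes (15.3%), 1514 with a more positive and 1261 with a more negative value at day 4. At day 3, 126 of the 1271 raised genes (9.91%) were lower and 73 of the 1046 lowered genes (6.98%) were higher. GATA6 was itself less reduced at day 3 (−1.69, adjusted p = 0.00566), and the decrease at day 4 was larger by −2.52 ± 0.40 (adjusted p = 0.00117). SOX17 read 9.69 and 9.71 in depleted cells at day 3 against 10.06 and 10.42 in control cells, a difference that was not called (−0.54, adjusted p = 0.147), and the change to day 4 was −7.01 ± 0.27 (adjusted p = 4.14e-08). PRDM1 (−4.23, adjusted p = 6.09e-06), CXCR4 (−4.00, adjusted p = 0.000745), HHEX (−3.34, adjusted p = 0.000861), GSC (−2.50, adjusted p = 0.00156), GATA4 (−2.36, adjusted p = 0.00293) and EOMES (−1.48, adjusted p = 0.00307) also had a more negative effect at day 4. For FOXA2, LHX1 and MIXL1 the difference between days was not called (−1.52, −1.40 and −0.57, adjusted p = 0.0805, 0.0627 and 0.197). It was called for FOXA2 with the replicate number as a block (adjusted p = 0.0468), without control day 4 replicate 1 (−1.96, adjusted p = 0.0427) and without either control array of day 5 (adjusted p = 0.0136), and for LHX1 without depleted day 4 replicate 1 (−2.17, adjusted p = 5.98e-05). By contrast, RSPO3, SNAI2 and INHBB were already higher at day 3 (3.01, 3.00 and 2.49, adjusted p = 0.000332, 0.000993 and 2.85e-05), and NOG already lower (−1.73, adjusted p = 0.0011).

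Between days 4 and 5 the effect differed in 17 genes (0.0938% of all). Of these, 4 had a more positive and 13 a more negative value at day 5. The count was 6 with only the arrays of days 3 to 5 and 26 with trended and robust moderation. It also depended on single arrays, as given below. SOX17 had the largest change of effect between these days. It read 6.31 and 6.55 in depleted cells at day 5 against 3.40 and 2.79 at day 4, with control cells at 10.66 and 10.51, so that its decrease was smaller at day 5 by 3.39 ± 0.27 (adjusted p = 0.00027). GATA6 read 6.37 and 6.62 in depleted cells at day 5, and its difference between days was not called (−0.82 ± 0.40, adjusted p = 0.575) except without depleted day 4 replicate 2 (−1.47, adjusted p = 0.0335). In GDF3 (−0.97 at day 4 and −2.51 at day 5) and SOX6, a HMG-box factor (−0.70 and −2.54), the decrease was larger at day 5 (adjusted p = 0.0476 and 0.00742). SOX6 lay at background in depleted cells on both days (means 2.66 and 2.31), with control means of 3.36 and 4.84. The effect on the transporter gene ABCC2 was 0.77 at day 4 and 2.72 at day 5 (adjusted p = 0.035), with control means near background (3.07 and 2.86). Its day 4 effect was 0.62 without control replicate 1 and 0.63 without depleted replicate 1. The calls of GDF3, SOX6 and ABCC2 between days 4 and 5 depended on single arrays, as the counts given below show. For the other 11 of the 12 core endoderm genes the difference between days 4 and 5 was not called in this fit. GSC gained a call without depleted day 4 replicate 2 (−2.18, against −1.6 in this fit).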

How the data were processed

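Total RNA was measured on PrimeView 3′ arrays. The deposited values were log2 levels per probe set that the authors had made by RMA in Partek (version not given in the sources used here), so that background correction, quantile normalisation and summarisation preceded deposit and raw probe intensities were not used here. Of 49395 probe sets, 44994 named 1 gene and were used, 1832 named several and 2569 named none. Each of 18132 genes was read from its brightest probe set, by the mean of the 16 arrays. limma 3.58.1 in R 4.3.3 (lmFit and eBayes, two-sided, Benjamini-Hochberg over all genes) was fitted to 16 arrays in 8 groups of 2, with 8 residual degrees of freedom. All adjusted p values are from limma. The median standard error was 0.152 log2, and precision is limited by the small number of arrays. The fit was tested on simulated data.

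Named genes were GATA6, the core endoderm genes, the 20 largest rises and falls without overlap, and the 5 largest differences in each of 40 lists (720 of 774 listed genes measured), in full for lists of up to 12 measured genes. Further genes, among them other list members and those whose effect differed between days 4 and 5, were chosen after their values were seen. The members and lists were chosen with earlier results of these data known. Lists are described by counts and medians only. Alternatives covered the normalisation, dim genes, probe sets, moderation, arrays fitted, the methods' thresholds, the replicate number and each array left out. Promoter sequences came from RefSeq (GRCh38.p14). Figures were drawn with matplotlib 3.10.9.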

Additional observations from a re-analysis of the deposited data

Results flagged for a closer look

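The effect of depletion differed between days 3 and 4, by limma's test of the difference itself, for GATA6 and 9 core endoderm genes, each with a more negative value at day 4. The change was −2.52 log2 for GATA6, −7.01 for SOX17, −4.23 for PRDM1, −4.00 for CXCR4, −3.34 for HHEX, −3.28 for OTX2, −2.74 for CER1, −2.50 for GSC, −2.36 for GATA4 and −1.48 for EOMES. The OTX2 difference (adjusted p = 0.0134) was no longer called without depleted day 4 replicate 2 (−2.74, adjusted p = 0.0672) or control day 3 replicate 1 (−2.99, adjusted p = 0.052). The CER1 difference (adjusted p = 0.0253) was no longer called when any 1 of 7 of the 8 arrays of days 3 and 4 was left out (adjusted p = 0.053 to 0.113). It held only without depleted day 4 replicate 1 among those 8.

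SOX17 also differed between days 4 and 5, by 3.39 log2, with a smaller decrease at day 5. This was 3.09 to 3.70 when single arrays were left out, and 1.75 as the mean of its probe sets.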

How the results depend on the processing

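Among 24 alternatives to the fit, the methods' thresholds apart, no named call reversed, and of 197 named calls other than GATA6, 168 kept their call under every one that gave them a value (191 had a value without dim genes). Under the methods' thresholds, an unmoderated analysis of variance with a z score limit, the number of genes called at day 4 was 571, that of genes called higher at day 4 was 272, that of genes called lower at day 4 was 299 and that of endoderm-enriched genes lower at day 4 was 276. Leaving out 1 array gave 3437 to 5477 genes called, 1847 to 2897 higher, 1590 to 2580 lower and 792 to 978 endoderm-enriched genes lower, with the count of lower genes least without depleted day 4 replicate 2. GATA6 at day 4 ranged from −4.86 to −3.56. Over genes called, effect at day 4 minus effect at day 3, the count was 1690 to 3152, least without the same array. For genes called, effect at day 5 minus effect at day 4, it was 1 to 75, with 75 without control day 5 replicate 1 and 1 without depleted day 5 replicate 1 or control day 4 replicate 1. This count was 9 with the mean of probe sets, 26 with trended and robust moderation, 6 with only the arrays of days 3 to 5 and 2 with the rescue arrays as 1 sample. The cause of these shifts was not tested. With replicate number as a block, 5134 genes were called and no named call was lost, although FOXA2 gained a call between days 3 and 4. Same-numbered arrays of the day 4 groups correlated at r = 0.0586, those of control days 3 and 4 at 0.253 and of control days 4 and 5 at 0.226, and r was over 0.1 in 4 of 28 pairs of groups, so the numbers were not taken as pairs. Low signal limits genes near background.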

Other observations

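Of 19 annexin and S100 genes 4 rose and 6 fell, where 14.8% of all genes rose and 13.3% fell. S100A16 and S100A13 fell by 3.55 and 2.23 and ANXA3 rose by 2.82, and the rises numbered 2 without depleted replicate 1 or control replicate 1. Of 16 neuropeptide and receptor genes 5 rose, or 3 without depleted replicate 2, and 2 fell, with GRP, gastrin-releasing peptide, falling by 3.05 and NPY, neuropeptide Y, rising by 2.20 (1.45 without control replicate 2). Of 22 epithelial junction and keratin genes 6 rose, or 2 without depleted replicate 2 and 3 without control replicate 1, and 2 fell, the latter being the simple epithelial keratins KRT8 and KRT19 (−0.74, or −0.49 without control replicate 2, and −0.93). Among HOX genes, HOXB2 fell by 2.51.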
